A study of Mus musculus with 4 samples.

Results

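The genes described here encode the subunits of the oxidative phosphorylation complexes I to V, from both the nuclear and the mitochondrial genome. They were chosen by symbol (Nduf, Sdh, Uqcr, Cox4 to Cox8, Atp5, and the protein-coding mitochondrial genes), with pseudogenes left out. Of 104 matching rows 7 were such pseudogenes, which left 97 of the 55536 rows of the deposited table. Nuclear genes made up 84 of them, with 35 in complex I, 4 in complex II, 8 in complex III, 20 in complex IV and 17 in complex V. The other 13 lie on the mitochondrial chromosome, 7 for complex I, 1 for complex III, 3 for complex IV and 2 for complex V. Ndufa4 and Ndufa4l2 were placed in complex IV, where the Ndufa4 protein is now assigned. Rows were matched by symbol without a measured value, though the set was chosen with earlier results of these data known. Atp5s, matched by its symbol, encodes an assembly-related protein rather than a subunit proper. A further 4 subunit genes with other kinds of symbol (Cyc1, Ndufab1, Usmg5 and 2010107E04Rik) fall outside the rule.

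RNA was sequenced from the stromal vascular cells of the inguinal white fat depot, the non-adipocyte cells that remain when fat cells are removed, of wild-type male mice at postnatal day 21. Each of the 4 libraries pooled 3 mice. The offspring groups bear the names LnF1 and ObF1 in the labels, the series concerns parental obesity, and each group had 1 library with water and 1 with 1,3BD, a drink named here as the labels write it. Levels are in CPM, reads relative to library size, scaled by a factor per library, from 24586827 to 26000090 reads each, and are always given in the order LnF1 water, LnF1 1,3BD, ObF1 water, ObF1 1,3BD. No group had a replicate, so the error of a difference (SE) measures how far it failed to repeat in the other parental group or the other drink, pooled by limma over genes of like expression with 1 residual degree of freedom. A gene passed where its limma adjusted p was under 0.05 among the 12838 genes that reached 1 CPM in at least 2 libraries.

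Complexes I to IV pass electrons from NADH and succinate to oxygen, and all of them except complex II pump protons across the inner mitochondrial membrane. Complex V, the ATP synthase, uses the proton gradient to make ATP. Most subunits are encoded in the nucleus and imported, while a few hydrophobic core subunits are transcribed from the mitochondrial DNA as long polycistronic precursors, so that each complex other than complex II needs products of both genomes. In adipose progenitors this machinery is built up as cells commit to fat cells, and it is densest in brown and beige fat.

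The filter on low values was passed by 79 nuclear genes and 12 mitochondrial genes. Cox7b2, Cox8b, Cox8c and a second gene model of Atp5o had 0 reads in all 4 libraries, which allows at most 0.130 CPM each. Cox7a1, an isoform of muscle and brown fat, had 19, 15, 20 and 24 reads and was not tested, nor was mt-Atp8, with 2, 3, 0 and 6 reads. The 9 fibroblast and progenitor markers summed to 17954, 5046, 19965 and 4235 CPM, lower with 1,3BD, most of it from the collagen gene Col1a1 at 16522, 4307, 18761 and 3371 CPM. Pdgfrb had 538, 157, 716 and 154 CPM, while Pdgfra, a receptor of adipose progenitors, had 243, 281, 236 and 412 CPM, and Dpp4, Pi16 and Lum had at most 6.54 CPM. Ptprc, the marker of all leukocytes, had 3, 1, 1 and 4 reads. The 3 B cell markers summed to at most 0.287 CPM and the 2 erythroid markers to at most 0.0359 CPM in any library. The defining markers of brown fat (Ucp1 and Cidea), T cells, epithelium and mature fat cells (Adipoq) had 0 reads. Of the other brown or beige markers Dio2 had 2, 86, 6 and 152 reads, and the 5 together summed to 0.891, 3.62, 1.13 and 6.60 CPM, higher with 1,3BD. The 4 endothelial markers summed to 4.67, 0.717, 12.9 and 2.44 CPM, lower with 1,3BD. The summed level of 5 mural and myofibroblast markers was 8443, 132, 8973 and 191 CPM, lower with 1,3BD. Most of it came from Acta2, at 7692, 113, 8097 and 165 CPM, while Rgs5 and Cspg4 had at most 7.95 CPM. The 4 mature fat cell markers summed to 0.170, 5.38, 0.0869 and 2.40 CPM and the 5 macrophage markers to 24.9, 4.34, 15.0 and 8.32 CPM. The part of these cells in the results was not tested, and in bulk RNA fewer cells of a type and less RNA per cell cannot be told apart.

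The first comparison asked how the level of these genes differed between the drinks. The nuclear subunit genes were mostly lower with 1,3BD and the mitochondrially encoded ones higher. Of 79 nuclear genes 41 fell, 1 rose and 37 did not pass, against 24.8% of all genes tested that were lower and 19.2% that were higher. Of 12 mitochondrial genes 10 rose and none fell, and all 5 genes with little shared sequence were among the 10. Some of the others have a nuclear copy over nearly the whole gene, so their rows give no transcript level, as described below. The median log2 difference between 1,3BD and water was -0.62 over the nuclear genes and 1.19 over the mitochondrial ones, beside -0.06 over all genes. The edgeR count test on recovered reads called 39 nuclear genes lower, 1 higher and 10 mitochondrial genes higher (24.3% and 18.7% of all genes lower and higher), and DESeq2 called 32, 1 and 9 (20% and 16.9%).

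**Figure D1:**
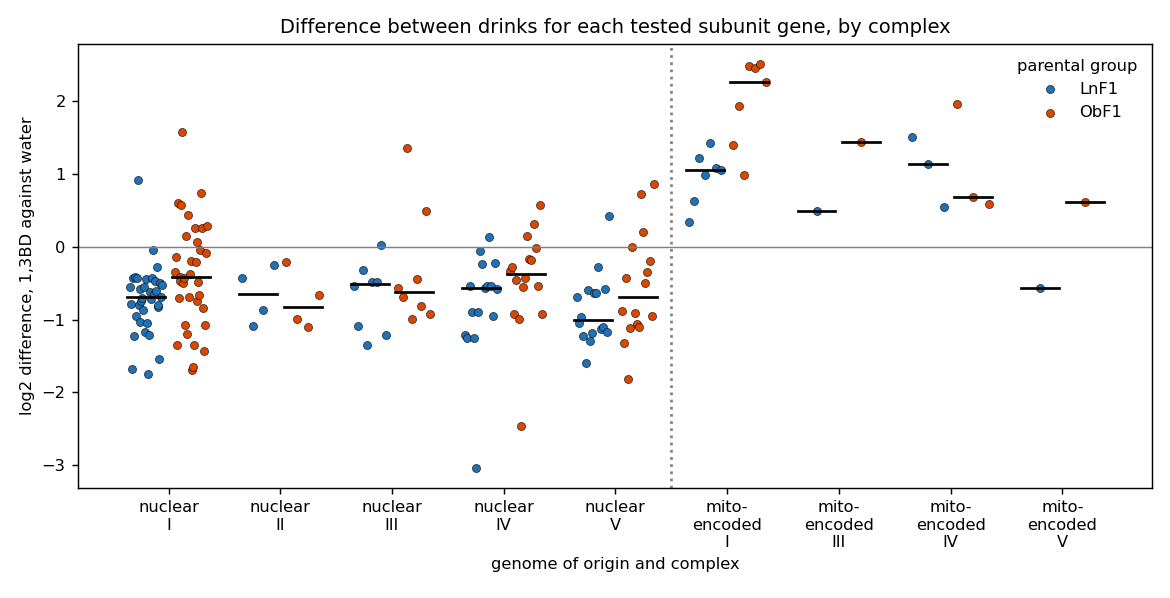
Log2 difference between the 1,3BD and the water library for every tested subunit gene (vertical axis), by genome and complex (horizontal axis), each point 1 gene in LnF1 (blue) or ObF1 (orange), with bars for medians. The nuclear medians lie below 0 in every complex and both parental groups (-0.69 and -0.45 over all nuclear genes), and of the mitochondrial genes only mt-Atp6 in LnF1, the single gene of complex V, lies below 0.

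The nuclear promoters are shown for 4 genes on which the results turn: Ndufb7 and Uqcrc1, among the lowest genes of their complexes with 1,3BD, Atp5b, the nuclear subunit gene with the highest level, and Ndufa6, the 1 nuclear gene that rose. Each line runs 5′ to 3′ on the gene's own strand from 250 bases before to 50 bases after the RefSeq start (GRCm38.p6), at chr8:83566508-83566807, chr15:82354242-82354541 (minus strand), chr10:128083057-128083356 and chr9:108936398-108936697. Capitals mark the searched motifs.
Ndufb7: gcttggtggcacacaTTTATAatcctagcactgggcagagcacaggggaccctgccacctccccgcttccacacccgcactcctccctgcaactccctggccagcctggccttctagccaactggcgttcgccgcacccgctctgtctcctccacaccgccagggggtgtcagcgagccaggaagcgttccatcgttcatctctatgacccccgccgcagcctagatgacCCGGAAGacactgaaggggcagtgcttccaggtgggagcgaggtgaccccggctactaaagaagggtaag
Ndufa6: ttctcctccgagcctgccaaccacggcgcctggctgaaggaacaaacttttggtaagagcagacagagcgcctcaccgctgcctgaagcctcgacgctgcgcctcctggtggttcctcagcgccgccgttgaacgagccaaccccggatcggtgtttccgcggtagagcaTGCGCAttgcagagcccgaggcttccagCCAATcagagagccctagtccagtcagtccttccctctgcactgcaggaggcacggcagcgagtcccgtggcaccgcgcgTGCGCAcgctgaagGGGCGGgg
Atp5b: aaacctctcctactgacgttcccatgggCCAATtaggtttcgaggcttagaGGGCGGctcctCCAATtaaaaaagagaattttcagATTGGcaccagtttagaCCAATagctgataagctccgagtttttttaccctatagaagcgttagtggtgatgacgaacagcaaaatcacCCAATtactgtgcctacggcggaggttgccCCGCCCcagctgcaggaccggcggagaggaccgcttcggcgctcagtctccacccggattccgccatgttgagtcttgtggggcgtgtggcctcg
Uqcrc1: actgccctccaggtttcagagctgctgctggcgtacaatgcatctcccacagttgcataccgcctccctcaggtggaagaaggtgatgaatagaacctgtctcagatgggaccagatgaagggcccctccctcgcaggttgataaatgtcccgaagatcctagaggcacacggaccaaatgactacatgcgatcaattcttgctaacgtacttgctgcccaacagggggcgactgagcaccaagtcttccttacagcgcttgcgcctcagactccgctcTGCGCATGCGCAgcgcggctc
The motifs, searched on both strands, were TGCGCA (part of the site of nuclear respiratory factor NRF1, its own reverse complement), CCGGAAG (the core bound by ETS factors such as GABP), AAGATGG (YY1), CCAAT (the box of that name), GGGCGG (the GC box of Sp1), TATAAA (the TATA box) and AAGGTCA (part of the site of the estrogen-related receptors). Ndufa6 held TGCGCA at 2 places, a CCAAT box and a GC box, and Uqcrc1 held TGCGCA at 2 adjoining places. Ndufb7 held CCGGAAG and, on the reverse strand, a TATA box, and Atp5b held CCAAT at 5 places and GGGCGG at 2, the motifs not overlapping.

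Windows were found for 68 of 83 nuclear genes looked up, 73 windows in all. TGCGCA was in 26.0% of these windows, beside 7.76% of all 32851 windows in the table and 13.8% of the windows of tested genes. CCGGAAG was in 21.9%, beside 8.86% and 17.5%, and AAGATGG in 15.1%, beside 6.34% and 7.02%. For AAGGTCA the shares were 11.0%, 4.72% and 3.07%. CCAAT (42.5%, beside 37.4% and 37.9%), GGGCGG (39.7%, beside 35.7% and 63.1%) and TATAAA (11.0%, beside 13.6% and 6.96%) complete the list. Among genes with a window that fell with 1,3BD, 8 of 34 held TGCGCA and 11 of 34 held CCGGAAG. Among those that did not pass, 9 of 30 and 5 of 30 did. A match describes the letters and is not evidence of binding.

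Complex I takes electrons from NADH. Of its 35 nuclear genes 16 fell with 1,3BD, 1 rose and 18 did not pass, where 24.8% of all genes fell and 19.2% rose. Ndufb7 (chromosome 8, 83566671 to 83571626, plus strand, mm10), an accessory subunit of the membrane arm, had 42.1, 12.4, 30.5 and 9.64 CPM. Both 1,3BD libraries lay below both water libraries, 3.39-fold lower in LnF1 and 3.16-fold lower in ObF1 (log2 -1.70, SE 0.23, limma adjusted p = 0.000205). Ndufa11, another membrane-arm accessory subunit, had 39.0, 12.2, 26.0 and 10.2 CPM (log2 -1.51, SE 0.24, limma adjusted p = 0.000539). Ndufs8, a core subunit that carries iron-sulfur clusters, had 52.3, 18.0, 37.0 and 13.7 CPM (log2 -1.48, SE 0.22, limma adjusted p = 0.000397). In neither gene did the drinks overlap.

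The core subunits of complex I did not move as 1 block. Ndufv1, which binds NADH and the flavin, had 78.7, 55.5, 65.5 and 31.2 CPM with no overlap (log2 -0.79, SE 0.22, limma adjusted p = 0.0137). Ndufs1, an iron-sulfur core subunit next to Ndufv1, had 59.3, 57.6, 63.3 and 66.2 CPM, and its drinks overlapped (log2 0.01, SE 0.20, limma adjusted p = 0.968). Ndufs7 and Ndufs3 also fell, by 0.82 and 0.57, while the core subunit Ndufv2 (log2 -0.39, limma adjusted p = 0.176) did not pass. The accessory genes that fell were Ndufb6, Ndufb8, Ndufa9, Ndufa13, Ndufb11, Ndufb4, Ndufa3, Ndufa7 and Ndufb3, by between 1.38 (Ndufb6) and 0.62 (Ndufb3).

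Ndufa6 (chromosome 15, 82350140 to 82354322, minus strand), an accessory subunit of the LYR family, went the other way. Its levels were 25.3, 47.7, 22.5 and 67.4 CPM, 1.89-fold higher with 1,3BD in LnF1 and 2.99-fold higher in ObF1. Both 1,3BD libraries lay above both water libraries (log2 1.25, SE 0.23, limma adjusted p = 0.00162). No other nuclear subunit gene rose. Ndufs5, an accessory subunit of the intermembrane side, had 37.9, 31.2, 31.2 and 52.0 CPM, with only the ObF1 1,3BD library above the rest (log2 0.23, SE 0.26, limma adjusted p = 0.505). Ndufa12, at 35.0, 26.0, 29.5 and 44.7 CPM, also had its highest level in ObF1 1,3BD and did not pass.

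Complex II, succinate dehydrogenase, also belongs to the citric acid cycle and is encoded in the nucleus alone. Its 4 genes were lower in both 1,3BD libraries than in both water libraries, beside 38.2% of all genes. Of these 2 fell, beside 24.8% of all genes. Sdhb, the iron-sulfur subunit, had 86.4, 40.7, 64.5 and 32.5 CPM (log2 -1.03, SE 0.20, limma adjusted p = 0.00215). Sdhc, a membrane anchor, had 140, 76.3, 105 and 48.9 CPM (log2 -0.98, SE 0.20, limma adjusted p = 0.00232). Sdha, the flavoprotein, had 195, 144, 175 and 152 CPM and did not pass (log2 -0.32, limma adjusted p = 0.203), and neither did the other anchor, Sdhd, at 67.1, 56.4, 64.4 and 40.8 CPM (log2 -0.45, limma adjusted p = 0.101).

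Complex III carries electrons from ubiquinol to cytochrome c. Of its 8 nuclear genes 4 fell and 4 did not pass, where 24.8% of all genes fell. Uqcrc1 (chromosome 9, 108936633 to 108949623, plus strand), a core protein, had 168, 65.9, 116 and 58.2 CPM, and Uqcrq, a small subunit, had 104, 44.9, 72.9 and 38.5 CPM. The drinks did not overlap in either gene, and the log2 differences were -1.17 (SE 0.20, limma adjusted p = 0.000894) and -1.06 (SE 0.21, limma adjusted p = 0.00189). Uqcrfs1, the Rieske iron-sulfur protein, had 69.2, 49.7, 60.4 and 34.4 CPM (log2 -0.64, SE 0.21, limma adjusted p = 0.0279), and Uqcr11 fell by 0.89. Uqcrh, the hinge protein, stood at 85.4, 86.6, 76.7 and 108 CPM (log2 0.26, SE 0.21, limma adjusted p = 0.333).

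Uqcrb (chromosome 13, 66900617 to 66905378, minus strand), a small subunit at the quinone site, had 42.5, 34.1, 31.2 and 79.9 CPM. Its level was 1.24-fold lower with 1,3BD in LnF1 and 2.56-fold higher in ObF1, so that the drinks overlapped (log2 0.52, SE 0.39, limma adjusted p = 0.321). Of the 50-base stretches of its transcript, 43.4% also occur in transcripts of other genes, so reads may be split between copies.

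Complex IV, cytochrome c oxidase, reduces oxygen, and several of its nuclear subunits come as tissue-specific isoform pairs. Of 16 tested genes 8 fell and none rose, where 24.8% of all genes fell and 19.2% rose. Cox4i1 (chromosome 8, 120668222 to 120674207, plus strand), the ubiquitous isoform of subunit 4, had 345, 149, 221 and 176 CPM, a 2.31-fold lower level with 1,3BD in LnF1 and a 1.25-fold lower level in ObF1 (log2 -0.77, SE 0.23, limma adjusted p = 0.0221). Its partner isoform Cox4i2, known from lung and from low oxygen, had 1.57, 0.610, 2.78 and 2.29 CPM, from 37, 17, 64 and 61 reads, and its drinks overlapped (log2 -0.77, limma adjusted p = 0.181).

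Both isoforms of subunit 6a fell. Cox6a1, the widely expressed form, had 124, 52.0, 98.4 and 49.5 CPM (log2 -1.12, SE 0.20, limma adjusted p = 0.00119). Cox6a2, the form of heart and skeletal muscle, had 2.33, 0.215, 2.43 and 0.375 CPM, from 55, 6, 56 and 10 reads, which is 10.9-fold lower with 1,3BD in LnF1 and 6.49-fold lower in ObF1 (log2 -2.75, SE 0.49, limma adjusted p = 0.00114). Of the 5 skeletal muscle markers Ckm and Myh4 had at most 1 read, Mylpf had 19, 32, 9 and 43 reads and Tnnt3 24, 20, 27 and 41. The actin gene Acta1, at 86.5, 1.83, 61.8 and 1.87 CPM, was the 1 marker of the 5 that was clearly lower with 1,3BD, and its part in the level of Cox6a2 was not tested.

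Cox6b1 (123, 66.0, 97.0 and 66.3 CPM), Cox8a (111, 57.3, 72.3 and 49.9 CPM) and Cox5a (38.1, 26.3, 35.2 and 18.6 CPM), all widely expressed forms, fell by 0.72, 0.74 and 0.73 on the log2 scale, with limma adjusted p-values of 0.0137, 0.0137 and 0.0231. Cox5b fell by 0.68. The testis-type isoform Cox6b2 was low at 3.10, 2.98, 1.39 and 1.01 CPM. The 2 tested members of the Cox7a family did not pass: Cox7a2 had 43.5, 29.3, 41.9 and 37.4 CPM, and Cox7a2l, which links complexes III and IV into supercomplexes, had 221, 152, 177 and 156 CPM. Cox7b was slightly higher in both 1,3BD libraries, at 43.4, 47.6, 40.2 and 49.9 CPM (log2 0.22, limma adjusted p = 0.409). Ndufa4 had 62.2, 53.3, 46.2 and 68.9 CPM with overlapping drinks (log2 0.18, limma adjusted p = 0.565). Its paralog Ndufa4l2 (chromosome 10, 127514967 to 127517154, plus strand), known as a hypoxia-inducible gene, had 39.9, 26.8, 90.4 and 47.7 CPM and fell (log2 -0.75, SE 0.21, limma adjusted p = 0.0151), although the highest 1,3BD library lay above the lowest water library.

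Complex V showed the largest share of lower genes, 11 of 16, with none that rose, where 24.8% of all genes fell and 19.2% rose. Atp5d (chromosome 10, 80138632 to 80145818, plus strand), the delta subunit of the central stalk, had 166, 71.0, 120 and 34.0 CPM, 2.34-fold lower with 1,3BD in LnF1 and 3.53-fold lower in ObF1 (log2 -1.52, SE 0.21, limma adjusted p = 0.000261). Atp5e, the epsilon subunit beside it, had 71.7, 23.7, 43.7 and 20.1 CPM (log2 -1.36, SE 0.23, limma adjusted p = 0.000764). In both, the water libraries were the higher pair with no overlap. Atp5b (chromosome 10, 128083273 to 128090391, plus strand), the catalytic beta subunit, had 960, 466, 973 and 389 CPM (log2 -1.18, SE 0.21, limma adjusted p = 0.00123). Atp5a1, the alpha subunit, had 602, 372, 529 and 288 CPM (log2 -0.79, SE 0.20, limma adjusted p = 0.00935).

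The genes Atp5g1, Atp5g2 and Atp5g3 encode the same mature protein of the rotor ring, with different import sequences. Their levels were 66.9, 27.2, 47.7 and 25.3 CPM for Atp5g1, 106, 46.5, 71.2 and 34.0 CPM for Atp5g2, and 127, 82.2, 111 and 51.8 CPM for Atp5g3. All these genes fell, by 1.10, 1.13 and 0.87 on the log2 scale, though 87.4% of the 50-base stretches of Atp5g2 occur in other transcripts. Atp5c1, Atp5o, Atp5j2 and Atp5k fell as well, by between 0.70 and 1.06. Atp5h, in the peripheral stalk, had 123, 79.0, 82.3 and 136 CPM, with the ObF1 1,3BD library the highest (log2 0.04, SE 0.30, limma adjusted p = 0.925). Atp5s, the gene that is no subunit proper, had 7.30, 9.79, 7.43 and 13.6 CPM (log2 0.64, limma adjusted p = 0.0779).

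Taken as levels without a test, 58 of 79 nuclear genes were lower in both 1,3BD libraries than in both water libraries, beside 38.2% of all genes, and 4 (Ndufa6, Uqcrh, Cox7b and Atp5s) were higher in both, beside 33.8%. The remaining 17 overlapped. The difference was negative for 75 of 79 genes in LnF1 (median -0.69) and for 61 of 79 in ObF1 (median -0.45). Among 75 nuclear genes with a mean of at least 5 CPM, 43 were at least 1.5-fold lower and 1 at least 1.5-fold higher with 1,3BD in LnF1, where 26% of all genes were lower and 20.8% higher. In ObF1 31 were lower and 6 higher (28.9% and 23% of all genes). Those 6 were Ndufa6, Ndufa12, Ndufs5, Uqcrb, Atp5h and Atp5s.

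Leaving out a library also takes the parental term out of the fit. Without that term alone the count of nuclear genes that fell was 26, beside 2522 of all 12838 genes. With both changes the nuclear median was -0.43 without the LnF1 water library and -0.53 without ObF1 1,3BD. It was -0.70 without ObF1 water and -0.70 without LnF1 1,3BD. Over all genes the median lay between -0.06 and -0.05 in these fits. Fewer nuclear genes passed as lower in each of them than in the full fit. Without LnF1 water the share of nuclear genes that passed as lower was smaller than that of all genes. Ndufa6 did not pass in every one of these fits, and its log2 difference was lowest without ObF1 1,3BD, at 0.998. Scaling to library totals, which moved the median of all genes from -0.06 to 0.19, left 23 nuclear genes lower and 2 higher (Ndufa6 and Atp5s), beside 2270 lower and 3687 higher among all genes in place of 3189 and 2466.

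Base composition moved with the drink across all genes. Over 12832 genes with a known transcript, the log2 difference and the GC content of the transcript had a Spearman rho of -0.453, and over the 79 nuclear subunit genes, which share the same libraries, rho was -0.459. In the fit over both parental groups the median of the subunit genes was lower than that of all genes at each level of GC. Below 45% GC the median was -0.27 for 10 subunit genes and 0.49 for 3027 genes, from 45% to 50% it was -0.44 for 21 and 0.13 for 3385, from 50% to 55% it was -0.72 for 25 and -0.26 for 3354, and from 55% it was -0.77 for 23 and -0.62 for 3066. In LnF1 alone the order was the same at each level. In ObF1 alone it was reversed from 55% GC, at -0.69 for the subunit genes and -0.76 for all genes, and below 45% GC the subunit median was 0.13 beside 0.53. Short transcripts were lower in LnF1 across all genes too. Under 800 bases the LnF1 median was -0.64 for 37 subunit genes and -0.47 for 545 genes. From 800 to 1500 bases it was -0.71 for 24 and -0.47 for 1508. For ObF1 these pairs were -0.43 and 0.07, and -0.58 and -0.28. With the trend over length and GC removed, the nuclear median was -0.49. In that fit limma called 34 nuclear genes lower and 1 higher, beside 2715 and 1773 of all 12832 genes. Among the named genes, Ndufv1, Cox4i1, Cox6a1, Cox8a and Ndufa4l2 no longer passed.

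**Figure D2:**
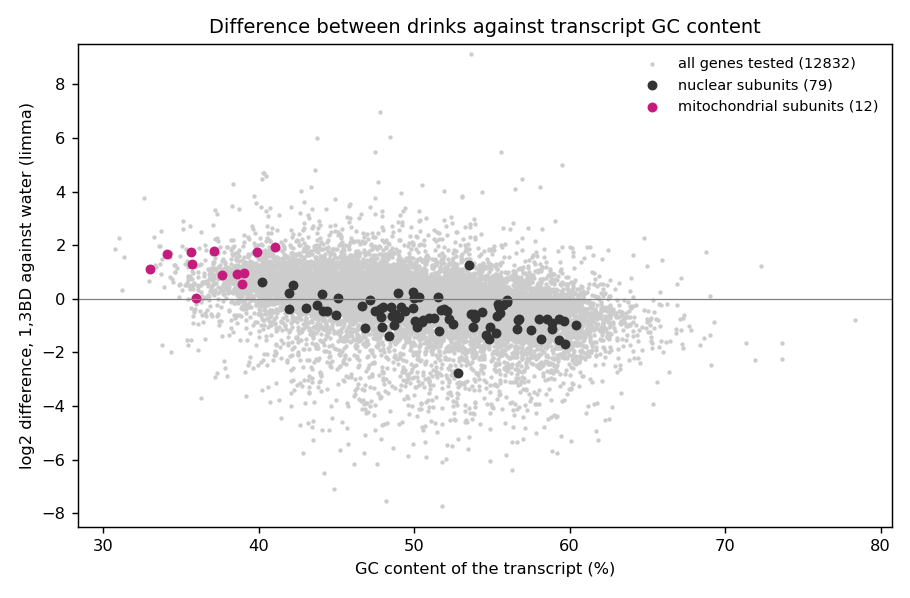
Log2 difference between 1,3BD and water against the GC content of the transcript in percent, with all tested genes in grey and the subunit genes in black (nuclear) and magenta (mitochondrial). Both clouds slope downward, and the nuclear subunit genes lie below the middle of all genes at each level of GC (medians -0.27 against 0.49 below 45% GC).

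The mitochondrially encoded genes are the core subunits Nd1 to Nd6 and Nd4l of complex I, Cytb of complex III, Co1 to Co3 of complex IV, and Atp6 and Atp8 of complex V. Part of this set has nuclear copies on chromosome 1 (24611535 to 24616197, minus strand) that are listed as genes of their own. The copies are identical over 681 bases of mt-Co2, 678 of mt-Atp6, 783 of mt-Co3, 342 of mt-Nd3, 294 of mt-Nd4l and 876 of the 1378 bases of mt-Nd4. The stretch between the copies of mt-Co2 and mt-Atp6 holds no listed copy, so mt-Atp8 was not compared. The copy of mt-Co1, Gm29216, matches 482 of 483 bases. The stretch around the base that tells this copy from the gene is shown, with the differing base in capitals. A read within the part aligned to Gm29216 can be told apart from that copy only there (A1066T, the mt-Co1 base first, counted from the first base of the gene, at position 6393 of the mitochondrial chromosome).
mt-Co1: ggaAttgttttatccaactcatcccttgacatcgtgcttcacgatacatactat
Gm29216: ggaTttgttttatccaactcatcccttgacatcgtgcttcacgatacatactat
Of the 50-base stretches of a gene, between 98.0% and 100% also occur in another gene for mt-Co2, mt-Co3, mt-Atp6, mt-Nd4l and mt-Nd3, 62.2% for mt-Nd4 and 51.1% for mt-Co1. The shared stretches of mt-Co1 occur in 3 other genes, Gm29216 among them. For mt-Nd1, mt-Nd2, mt-Nd5, mt-Nd6 and mt-Cytb the share was at most 8.19%. How the authors' counting treated reads that fit both places is not given in the sources used here.

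The 5 genes with little shared sequence all rose. mt-Nd5 (mitochondrial chromosome, 11742 to 13565) had 1661, 3522, 1785 and 10166 CPM, 2.12-fold higher with 1,3BD in LnF1 and 5.70-fold higher in ObF1 (log2 1.80, SE 0.33, limma adjusted p = 0.0023). The water libraries were close to each other, and the ObF1 1,3BD library was the highest. mt-Nd2 had 663, 1023, 723 and 2768 CPM (log2 1.28, SE 0.30, limma adjusted p = 0.00804). mt-Nd1 had 1239, 1567, 1328 and 3504 CPM (log2 0.87, SE 0.28, limma adjusted p = 0.0277). mt-Cytb, the cytochrome b of complex III, had 1668, 2338, 1769 and 4800 CPM (log2 0.96, SE 0.28, limma adjusted p = 0.0157). The order of the libraries was the same in each of these genes.

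mt-Nd6, alone among these genes on the minus strand, had 493, 1023, 545 and 2614 CPM (log2 1.66, SE 0.29, limma adjusted p = 0.00143). Since the use of strand in counting is not given in the sources used here, its reads cannot be told apart from RNA of the other strand, and it overlaps the end of mt-Nd5.

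mt-Co1 (mitochondrial chromosome, 5328 to 6872, plus strand), the catalytic core of complex IV, had the highest level of all 97 genes, at 4372, 12398, 6389 and 24984 CPM. It was 2.84-fold higher with 1,3BD in LnF1 and 3.91-fold higher in ObF1 (log2 1.74, SE 0.28, limma adjusted p = 0.000591). Its copy Gm29216 stood at 7.26, 36.5, 3.08 and 304 CPM. mt-Nd4 had 738, 1461, 784 and 4386 CPM (log2 1.73, SE 0.34, limma adjusted p = 0.0034), with its copy Gm28439 at 2.38, 3.77, 2.30 and 8.70 CPM. Both genes kept the 1,3BD libraries above the water libraries.

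The genes with a copy over nearly their whole length had levels lower by orders of magnitude. mt-Co2 had 7.73, 17.1, 10.04 and 16.2 CPM (log2 0.91, SE 0.26, limma adjusted p = 0.0148), with its copy Gm28661 at 4.58, 8.32, 4.65 and 32.8 CPM. mt-Nd3 had 1.57, 3.77, 2.52 and 5.06 CPM and mt-Nd4l 0.509, 1.51, 0.565 and 3.45 CPM, the latter from 12, 42, 13 and 92 reads. Both rose, by log2 1.10 and 1.94 (limma adjusted p = 0.0283 and 0.00733). mt-Co3 had 3.52, 5.16, 5.26 and 7.91 CPM (log2 0.56, limma adjusted p = 0.163), and mt-Atp6 had 1.57, 1.04, 1.35 and 2.10 CPM (log2 0.03, limma adjusted p = 0.968). These low levels describe the reads assigned to the mitochondrial row and give no level of the transcript.

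**Figure D3:**
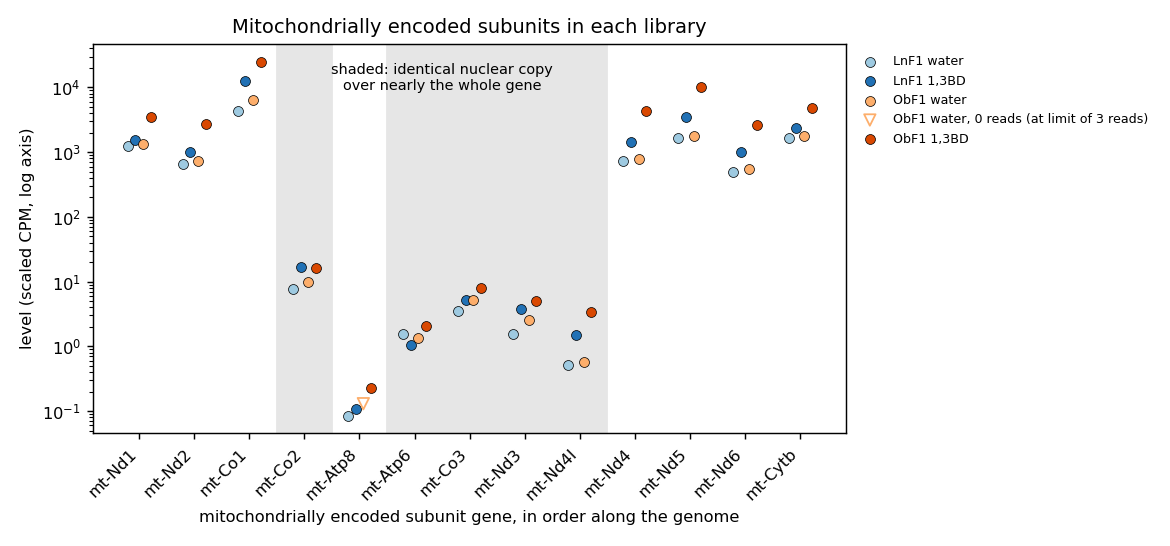
Level of the 13 mitochondrially encoded subunit genes in each of the 4 libraries, in scaled CPM on a log10 axis, with genes in their order along the mitochondrial chromosome and open triangles for 0 reads at the limit of 3 reads. Shading marks the 5 genes with an identical nuclear copy over nearly the whole gene, which lie at 17.1 CPM or lower in every library, as does mt-Atp8 between them, while every unshaded gene other than mt-Atp8 lies at 493 CPM or higher.

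Median log2 differences of the mitochondrial genes were 1.02 in LnF1 and 1.69 in ObF1. Of 9 mitochondrial genes with a mean of at least 5 CPM, 6 were at least 1.5-fold higher with 1,3BD in LnF1 and 8 in ObF1, beside 20.8% and 23% of all genes. Without the parental term 6 of the 12 genes passed as higher, beside 1866 of all 12838 genes. When a library was left out along with that term, fewer mitochondrial genes passed than in the full fit. Their median was then 1.07 without LnF1 water, 1.39 without ObF1 water, 0.92 without ObF1 1,3BD and 1.74 without LnF1 1,3BD. The median over all genes lay between -0.06 and -0.05 in these fits. The mitochondrial transcripts have a median GC content of 37.4%, beside 51.5% for the nuclear subunit genes and 50% for all genes. With the trend over length and GC removed, their median fell to 0.39, and mt-Co1, mt-Nd5 and mt-Nd4 still passed while mt-Nd3 lay at -0.06.

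Summed over genes, the nuclear subunits had 7273, 4252, 6032 and 4257 CPM and the mitochondrial subunits 10848, 23360, 13344 and 53257 CPM. The ratio of mitochondrial to nuclear level was 1.49, 5.49, 2.21 and 12.5. Both 1,3BD libraries lay above both water libraries, and the ObF1 library was the higher in each drink. mt-Co1 alone made up 40.3%, 53.1%, 47.9% and 46.9% of the mitochondrial sum, and without it the ratio was 0.890, 2.58, 1.15 and 6.64. The mitochondrial sum holds only reads assigned to the mitochondrial rows. These give no transcript level for genes copied over nearly their whole length, so the ratio and these shares depend on that assignment. With only the 5 mitochondrial genes with little shared sequence over the same nuclear sum, the ratio was 0.787, 2.23, 1.02 and 5.60. The mitochondrial chromosome as a whole took 1.13%, 2.78%, 1.30% and 5.80% of reads. By complex, the nuclear sums were 1775, 1104, 1406 and 1140 CPM for complex I, 488, 318, 409 and 274 for complex II, 646, 398, 508 and 425 for complex III, 1395, 827, 1127 and 919 for complex IV, and 2970, 1605, 2581 and 1499 for complex V.

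**Figure D4:**
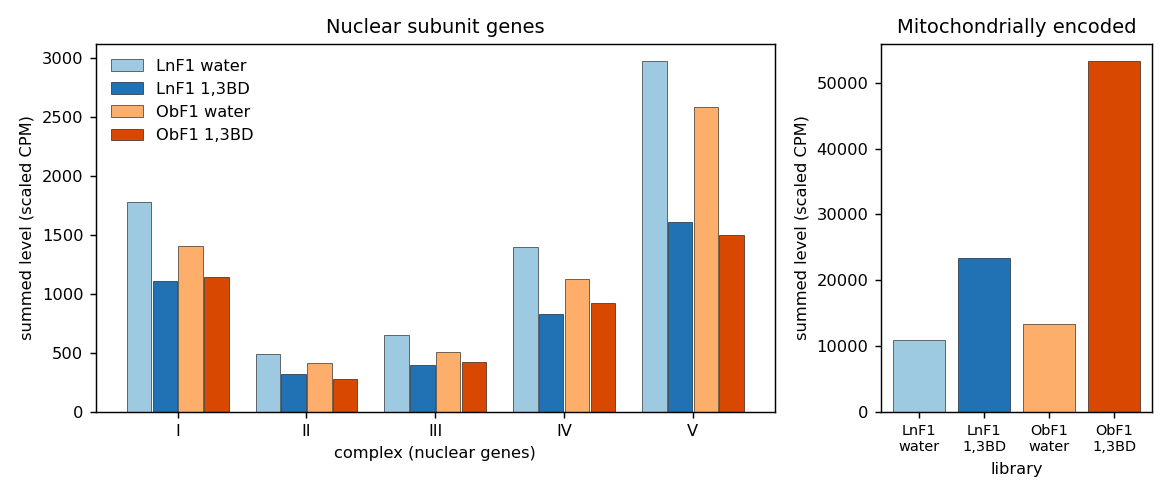
Summed level in scaled CPM of the nuclear subunit genes by complex and of the mitochondrial subunit genes in each of the 4 libraries. Every nuclear complex is lower in the 1,3BD libraries than in the water libraries, and the mitochondrial sum is 10848 and 13344 CPM with water and 23360 and 53257 CPM with 1,3BD.

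On the scale of CPM per kilobase of the transcript chosen for each gene, levels can be compared only roughly between genes. The nuclear medians include 29 genes with at least 10% shared stretches, whose reads may be split between copies, while such mitochondrial genes were left out. The median gene of complex V was the most abundant in LnF1 water, at 134 CPM per kilobase, followed by complex IV at 88.9, complex III at 81.3, complex II at 60.8 and complex I at 50.8. In ObF1 1,3BD the medians per kilobase were 59.6, 71.7, 36.1, 30.8 and 27.8, so that complex IV came first there, as it did in LnF1 1,3BD at 63.1 beside 60.03 for complex V. The nuclear genes with the highest level per kilobase in LnF1 water were Atp5b (501), Cox4i1 (451), Atp5a1 (244) and Cox6a1 (217). Spread within a complex was wide, and no interval was computed for this order. The 5 mitochondrial genes with little shared sequence had a median of 949, 1931, 1051 and 4196 CPM per kilobase, above the median of 64.6, 39.0, 52.3 and 36.0 over the 79 nuclear genes in every library.

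The second comparison set ObF1 against LnF1, and no subunit gene passed in it. In limma 0 of 79 nuclear and 0 of 12 mitochondrial genes had an adjusted p under 0.05, beside 0.195% of all genes higher and 0.101% lower in ObF1. At an unadjusted p under 0.05 there were 9 of 79 nuclear and 6 of 12 mitochondrial genes, beside 1392 of all 12838 genes, a share like that of the nuclear genes. edgeR called 0 (0.187% and 0.109% of all genes higher and lower), and DESeq2 called 1, Ndufa4l2 (0.537% and 0.374%). Without the filter on low values, which more than doubles the genes tested, limma called Ndufa4l2, mt-Co1, mt-Nd2, mt-Nd4, mt-Nd5 and mt-Nd6 higher and Atp5d lower. This comparison uses the same 4 libraries as the first.

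Ndufa4l2, at 39.9, 26.8, 90.4 and 47.7 CPM, was 2.26-fold higher in ObF1 with water and 1.78-fold higher with 1,3BD (log2 1.00, SE 0.21, limma adjusted p = 0.0950). DESeq2 gave an adjusted p of 0.0277 and edgeR one of 0.111. Its partner Ndufa4 gave a log2 difference of -0.03, with ObF1 lower in water and higher with 1,3BD. Cox4i2, also known to respond to low oxygen, was 1.77-fold and 3.75-fold higher in ObF1 at few reads (log2 1.29, SE 0.44, limma adjusted p = 0.314), while Cox6b2 was lower in both drinks, from 73, 83, 32 and 27 reads (log2 -1.30, SE 0.40, limma adjusted p = 0.257). The nuclear genes with the lowest values among the widely expressed ones were Ndufb11 (53.9, 33.1, 37.5 and 16.3 CPM, log2 -0.77, limma adjusted p = 0.231) and Atp5d (log2 -0.76, limma adjusted p = 0.211).

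With water, 70 of 79 nuclear genes were lower in ObF1 than in LnF1, with a median log2 difference of -0.33 beside 0.00 over all genes. By complex these were 33 of 35, 4 of 4, 8 of 8, 12 of 16 and 13 of 16. The differences were small: 6 genes (Ndufb10, Ndufb4, Cox4i1, Cox8a, Atp5e and Atp5k) were at least 1.5-fold lower and 1, Ndufa4l2, was at least 1.5-fold higher, beside 5% and 6.53% of all genes. With 1,3BD the median was -0.01, beside 0.02 over all genes, with 41 lower and 38 higher. At least 1.5-fold higher were 7 genes (Ndufa12, Ndufa5, Ndufs5, Ndufs6, Uqcrb, Ndufa4l2 and Atp5h) and lower were 6 (Ndufb11, Ndufb6, Ndufv1, Sdhc, Atp5d and Atp5g3), beside 9.23% and 11.4%. In both drinks together 39 of 79 were lower and 7 higher, beside 28.5% and 30.2% of all genes. With water, 77 of 82 cytosolic (median -0.31) and 68 of 77 mitochondrial ribosomal protein genes (median -0.23) were lower in ObF1 as well. With 1,3BD their medians were 0.06 and 0.07. Among all 545 genes with transcripts under 800 bases the median with water was -0.26, beside -0.33 for 37 nuclear subunit genes of that length. These single-library differences have no replicate and no test.

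Cox4i1, at 345 and 221 CPM with water and at 149 and 176 CPM with 1,3BD, was 1.56-fold lower in ObF1 with the first drink and 1.18-fold higher with the second. Uqcrb was 1.36-fold lower and 2.34-fold higher, and Atp5h 1.49-fold lower and 1.72-fold higher. Whether such differences depended on the drink could not be tested, since a model with that term leaves no residual degree of freedom.

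The mitochondrial genes differed little between parental groups with water (median log2 difference 0.13) and more with 1,3BD (1.10). mt-Nd5 was 1.07-fold higher in ObF1 with water and 2.89-fold higher with 1,3BD, and mt-Nd1 1.07-fold and 2.24-fold. mt-Co1 was 1.46-fold higher with water and 2.02-fold with 1,3BD (log2 0.78, SE 0.28, limma adjusted p = 0.330). With 1,3BD 8 of 9 genes with a mean of at least 5 CPM were at least 1.5-fold higher, with water none, beside 9.23% and 6.53% of all genes. Over both drinks the median was 0.64 for the mitochondrial and -0.17 for the nuclear genes. Fits to 3 libraries could not keep the drink term, so they mix the drink into the parental difference. In them the mitochondrial median was -0.19 without ObF1 1,3BD, and the nuclear median 0.20 without LnF1 water and 0.06 without ObF1 1,3BD. Within water alone, which keeps the drink fixed and uses no 1,3BD library, 11 of 12 mitochondrial genes were higher and 70 of 79 nuclear genes lower in ObF1.

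**Figure D5:**
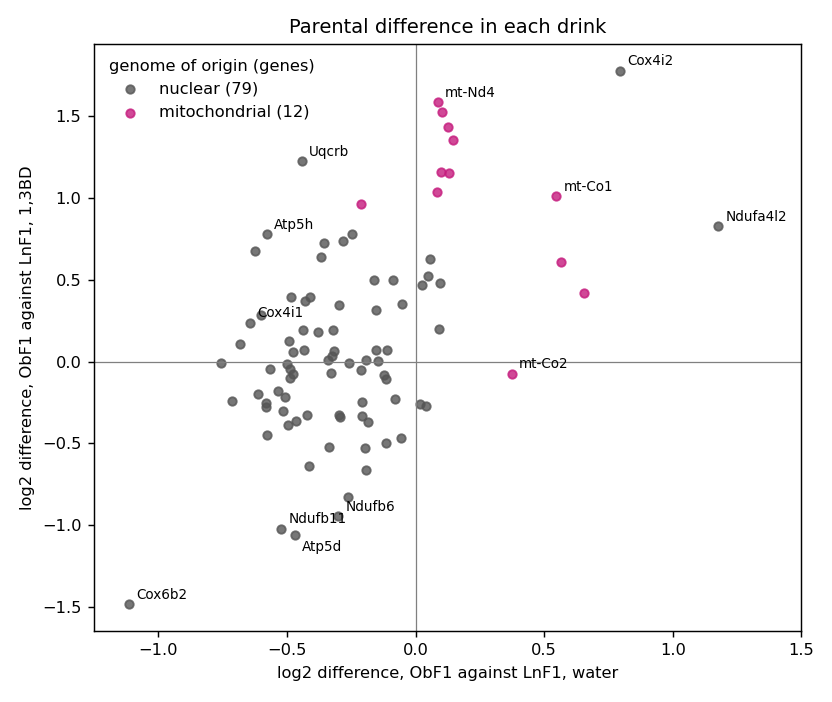
Log2 difference between ObF1 and LnF1 for each tested subunit gene, with water on the horizontal axis and with 1,3BD on the vertical axis, coloured by genome. Most nuclear genes lie left of 0 with water (70 of 79) and on both sides of 0 with 1,3BD (41 below, 38 above), and most mitochondrial genes lie near 0 on the horizontal axis and above it on the vertical axis.

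Other genes of the pathway, from lists chosen with earlier results known, were counted in the same fit, and none of them passed between parental groups. Their counts for drink stand beside the 24.8% of all genes that fell and the 19.2% that rose. Of assembly factors for complexes I, II, III, IV and V, 2 of 17, 0 of 4, 1 of 6, 3 of 21 and 0 of 4 fell with 1,3BD and 2, both of complex IV, rose, in each list a share below that of all genes. Those that fell were Ndufaf8 (log2 -1.01), Dmac1 (-0.71), Uqcc2 (-1.18), Coa3 (-0.92), Higd2a (-0.75) and Cox10 (-0.67), the last of which falls outside the naming rule. Cox17 (1.15), the copper chaperone of complex IV, and Sco1 (0.67), which inserts copper, rose. Of the 4 subunit genes with other symbols Cyc1, the cytochrome c1 of complex III, fell from 71.2 and 50.3 CPM with water to 34.8 and 16.0 CPM with 1,3BD (log2 -1.34, SE 0.23, limma adjusted p = 0.000974).

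Among 20 electron carriers and exchange proteins 7 fell and none rose, beside 24.8% and 19.2% of all genes. Slc25a4, the ADP/ATP carrier, had 475, 209, 384 and 183 CPM (log2 -1.13, SE 0.20, limma adjusted p = 0.00102), and Coq7, of ubiquinone synthesis, fell by 1.08. Vdac1 and Vdac3, channels of the outer membrane, fell by 0.72 and 0.65. Of 18 import and chaperone genes 6 fell, including Phb (-1.28) and Timm17b (-0.94), and 1 rose, Tomm70a (0.69), beside the same shares of all genes.

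Of 14 tested genes that copy and transcribe mitochondrial DNA 5 rose and none fell, beside 19.2% and 24.8% of all genes, with a median of 0.48. Ssbp1, the mitochondrial single-stranded DNA binding protein, had 16.0, 30.1, 15.1 and 41.7 CPM (log2 1.18, SE 0.24, limma adjusted p = 0.00246). Tfb2m, needed to start transcription, rose by 0.94, Twnk, the helicase, by 0.74 and Mterf1a, of the termination factor family, by 1.21. Tfam, which packages mitochondrial DNA and starts its transcription, had 22.4, 30.2, 21.9 and 35.2 CPM and did not pass (log2 0.56, limma adjusted p = 0.0618), and neither did Polrmt, the RNA polymerase (log2 -0.53, limma adjusted p = 0.0969). Both of these genes were named after their values were seen.

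Of 19 genes of mitochondrial RNA processing and stability 4 rose and 3 fell, shares near or below the 19.2% and 24.8% of all genes. Trmt10c, a subunit of mitochondrial RNase P, rose (log2 1.48), while Hsd17b10, another subunit of the same enzyme, fell (-1.10). Grsf1 of the RNA granules rose by 1.01, and Slirp, which stabilises mitochondrial messenger RNA, fell by 1.16. Of 12 biogenesis regulators 6 rose and 1 fell (19.2% and 24.8% of all genes), among them Prkaa2, a catalytic subunit of AMP-activated kinase (1.83), Myc (1.28), Gabpa (0.60) and Pprc1 (-0.57). Gabpa and Tomm70a lay at -0.05 and -0.04 once the trend over length and GC was removed. Of 8 genes tied to oxygen-dependent isoforms 1 rose, Epas1 (0.67), 1 fell, Egln3 (-1.22), and 6 did not pass. Both shares were below the 19.2% and 24.8% of all genes.

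As a comparison, 19 of 77 tested mitochondrial ribosomal protein genes fell with 1,3BD and 2 rose (median -0.34), and 23 of 82 cytosolic ribosomal protein genes fell and none rose (median -0.41), counts of lower genes near the 24.8% of all genes. The libraries did not overlap, with 1,3BD lower, for 46 of 77 and 48 of 82 of these genes, beside 38.2% of all genes. In LnF1 alone 63 of 77 (median -0.43) and 78 of 82 (median -0.58) were lower with 1,3BD. At a mean of at least 5 CPM, 29 of 77 and 41 of 80 were at least 1.5-fold lower in LnF1. That stands beside 43 of 75 nuclear subunit genes and 26% of all genes. In ObF1 21 of 77 and 18 of 80 were, beside 31 of 75 subunit genes and 28.9% of all genes. The difference between these sets and the subunit genes was not tested.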

How the data were processed

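The deposited table gives 1 signal value per gene and library, CPM (reads relative to library size) scaled by a factor per library. All deposited values are whole multiples of what 1 read is worth (100% within a relative tolerance of 1e-06), so whole reads were recovered, from 24586827 to 26000090 per library, with 1 read worth 0.0359 to 0.0434 CPM and a limit of 3 reads for a count of 0 (counting error only). Per the submitters' processing notes the build was mm10, and edgeR and DESeq2 are named without role. Aligner, counter, annotation and use of strand: not given in the sources used here. Columns that name no drink were matched to water.

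The tests had been planned for counts. As the values were scaled, limma 3.58.1 (R 4.3.3, trend and robust moderation) was fitted on log2(CPM + 0.0796), worth 2 reads, additive in drink and parents, over the 12838 genes that reached 1 CPM in 2 or more libraries, with Benjamini-Hochberg adjustment at 0.05. These differences understate the change of low genes. edgeR 4.0.16 and DESeq2 1.42.0 were run on recovered reads as alternatives. The fit was also run on simulated reads with few changed genes and no trend over GC or length. Those settings differ from these data, so no result here rests on that run. With pooled mice and no replicates, p-values measure only the spread between these libraries. The genes and lists were chosen with earlier results of these data known. Named genes were the mitochondrial genes, the 2 lowest and 2 highest per complex and comparison, isoform pairs, core subunits, and up to 4 passing genes per list, and others named are those counted beside them. A gene that this rule names is not reported here. Transcript length, GC and shared 50-base stretches come from GENCODE vM21 (GRCm38), promoters from RefSeq GRCm38.p6.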

Additional observations from a re-analysis of the deposited data

Results flagged for a closer look

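Some subunit genes moved in opposite directions within the design, each beyond the counting error of its reads. These differences between single libraries were not tested, since no combination has a replicate. With 1,3BD against water the log2 difference was -0.28 in LnF1 and 0.74 in ObF1 for Ndufs5, -0.32 and 1.35 for Uqcrb, -0.22 and 0.58 for Ndufa4, and -0.64 and 0.72 for Atp5h. With ObF1 against LnF1 it was -0.25 with water and 0.78 with 1,3BD for Ndufa12, -0.28 and 0.74 for Ndufs5, -0.15 and 0.0716 for Sdha, and -0.44 and 1.23 for Uqcrb. It was -0.15 and 0.32 for Uqcrh, -0.64 and 0.24 for Cox4i1, and -0.43 and 0.37 for Ndufa4. Both sets of values come from the same 4 libraries, and the ObF1 1,3BD library is the highest of all 4 in Ndufs5, Uqcrb, Ndufa4, Atp5h, Ndufa12 and Uqcrh. Of the 50-base stretches of the transcript, 31.1% in Ndufs5, 43.4% in Uqcrb, 47.9% in Atp5h and 26.2% in Ndufa12 occur in other genes, and none in Ndufa4.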

How the results depend on the processing

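The count of 41 nuclear genes lower with 1,3BD became 23 with scaling to library totals, 26 without the parental term and 26 of 50 genes with under 10% shared stretches, an alternative chosen after seeing the data. It ranged from 3 to 30 when each library was left out, and the count of 1 higher was 2 with library totals and ranged from 0 to 2. The nuclear median of -0.62 was -0.37 with library totals and ranged from -0.70 to -0.43 without 1 library. The 10 mitochondrial genes higher with 1,3BD became 6 without the parental term, 3 with the length and GC trend removed, 5 of 5 with under 10% shared stretches, and 0 to 8 without 1 library. Their median of 1.19 became 0.39 with that trend removed and ranged from 0.92 to 1.74 without 1 library. For parents, no filter on low values gave 1 nuclear gene higher, 1 lower and 5 mitochondrial genes higher, and DESeq2 1 nuclear gene higher. The nuclear median of -0.17 ranged from -0.57 to 0.20, and the mitochondrial median of 0.64 from -0.19 to 1.54, without 1 library. With the length and GC trend removed, 3 differences between drinks changed sign: Gabpa (-0.0547), Tomm70a (-0.0384) and mt-Nd3 (-0.0599). The cause of these changes was not tested. The median over all genes moved to 0.19 for drink and -0.09 for parents with library totals. Fits that leave out a library hold 3 libraries, assume that the lone library of a group varies like the others, and drop the other factor, so these ranges reflect both changes. No paired analysis was possible because the labels carry no replicate numbers, with 1 library per combination. Depth limits Ndufb2, Cox4i2, Cox6a2, Cox6b2, Cox7a1, mt-Nd4l, mt-Atp6 and mt-Atp8, each under 100 reads in every library.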

Other observations

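Nuclear copies of mitochondrial genes that are rows of the table but no subunit genes had levels that did not all follow their mitochondrial counterparts. Gm29216, the partial copy of mt-Co1, had 7.26, 36.5, 3.08 and 304 CPM, with libraries in the order used above. Gm10925, the copy of mt-Atp6, had 8.96, 3.91, 11.5 and 7.09 CPM, lower in both 1,3BD libraries, and Gm28437, the copy of mt-Co3, had 4.29, 5.06, 6.13 and 7.54 CPM. Whether these values reflect transcripts of the copies or the assignment of shared reads was not tested.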
